A study of Mus musculus with 12 samples.

Results

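The genes described here are 45 genes of apoptosis and the p53 pathway, listed by name and function. Of the 45, 44 were among the 23513 genes of the count tables, and Bcl2l2 is not analysed here. A second list held 97 other genes of the same pathways, of which 93 were in the tables.

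Nuclei came from the cortices of C57BL/6J mouse embryos at embryonic day 14. Dams had received daily intraperitoneal injections for 6 days, of saline or of EtOH in saline at 2.5 g/kg. Each embryo gave 1 library of droplet-based single nucleus RNA sequencing (snRNAseq), which counts RNA molecules by unique molecular identifiers (UMIs). There were 5 saline embryos, named S1-1, S1-2, S2-1, S2-2 and S2-4 after their dams S1 and S2, and 6 EtOH embryos, named E1-1, E1-2 and E2-1 to E2-4 after dams E1 and E2. Batch 1 held the litters of S1 and E1 and batch 2 those of S2 and E2. With 2 dams per treatment, the p-values below measure the spread between embryos and treat littermates as independent. The 50550 nuclei carried the authors' 25 clusters, which were grouped into radial glial cells (RGC), intermediate progenitors (IPC), projection neurons (PN), interneurons (Int) and other cells. Levels are counts summed over the nuclei of an embryo, per 1000000 counts of all genes (CPM).

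Apoptosis follows a mitochondrial and a death receptor route. In the first, BH3-only proteins counter the anti-apoptotic BCL2 proteins so that BAX and BAK1 open the mitochondrial membrane, and released cytochrome c joins APAF1 to activate caspase 9. In the second, FAS and related receptors activate caspase 8. The transcription factor p53, kept low by MDM2 and MDM4, induces genes that stop the cell cycle or promote death, and in the embryonic cortex it acts in progenitors and young neurons under stress.

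Every EtOH library was shallower than every saline library, with 14078316 to 38034349 UMIs against 44017566 to 83061737. UMIs per nucleus were 9898 to 10873 in S1-1, S1-2, S2-1 and S2-2 and 4858 to 8237 in the EtOH embryos. The fifth saline embryo, S2-4, had 7474 UMIs per nucleus, within the EtOH range. Of 50226 barcodes, 314 (0.625%) occurred in more than 1 embryo. The authors named the clusters from markers in these same nuclei, so marker levels describe the names and do not test them. Eomes, the IPC marker, was highest in Clusters 6 (414 ± 40.4 CPM, SD, n = 11) and 17 (202 ± 47.4). Reln, the Cajal-Retzius marker, was highest in Cluster 14. RGC made up 25.7% ± 3.965 of nuclei in saline and 20.7% ± 2.48 in EtOH embryos, and PN 28.9% ± 6.23 and 36.6% ± 5.21. Sums over all nuclei mix the share of each type with its level, and for this reason levels are also given by type and cluster.

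By mean CPM over embryos, 20 of the 44 genes were highest in an RGC cluster, 9 in a cluster of the other cells, 6 in IPC, 5 in PN and 4 in Int. How all genes split in this way is not given here. Some of these tops rested on few UMIs, such as 2 for Pmaip1, 3 for Gadd45b, 11 for Fadd and 15 for Endog, all in Clusters 20 and 21. The single clusters that led for most genes were Cluster 14, the Cajal-Retzius cells of Layer I (8 genes), Cluster 21, the cortical hem RGC (7 genes), and Cluster 12, the non-mitotic RGC (6 genes). Cluster 21 was above the second cluster in 9 of 10 embryos for Perp and 6 of 10 for Bcl2 and Endog. It was above in 5 of 10 for Casp6, 5 of 8 for Bcl2l11 and Cflar and 3 of 8 for Sesn3. The authors had made the clusters from the expression of these nuclei, so these levels are a description and were not tested. Which cluster led stayed the same for 32 to 41 of the 44 genes when embryos were left out, saline embryos alone were used, or counts were pooled. In saline embryos alone, Mdm2 was highest in Cluster 6 and Bnip3l in Cluster 21, in place of Cluster 12.

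**Figure D1:**
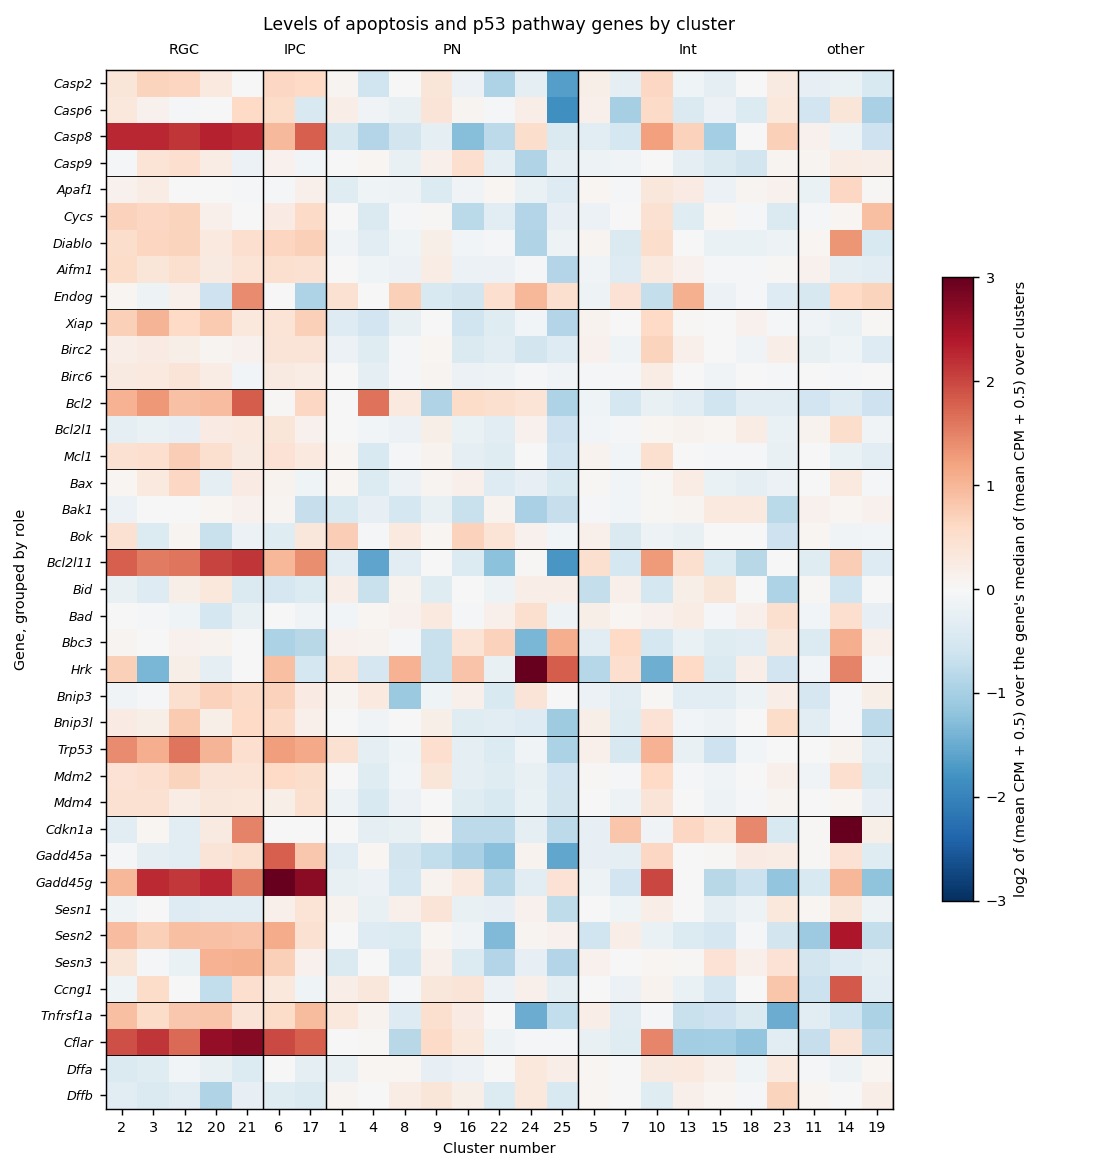
Mean level of the 39 genes with at least 300 UMIs in each of the 25 clusters (columns, grouped by cell type), as log2 of mean CPM plus 0.5 over the gene's median over clusters; red is above and blue below that median. Casp8, Bcl2l11, Trp53, Gadd45g and Cflar are red in the RGC and IPC clusters and in Int Cluster 10, and Cdkn1a, Sesn2, Ccng1 and Diablo are red in Cluster 14.

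Trp53, which encodes p53, was at 41.3 ± 6.985 CPM in RGC and 38.9 ± 5.36 in IPC (SD, n = 11), against 16.9 ± 2.17 in PN and 17.3 ± 2.77 in Int. The lowest RGC embryo (32.2 CPM) was above the highest PN embryo (21.6). By cluster, Trp53 was highest in Cluster 12 (51.1 ± 11.7 CPM; lowest 36.3, median 51.2, highest 75.95), followed by RGC Cluster 2 (44.97 ± 8.39), and Cluster 12 was above Cluster 2 in 9 of 11 embryos. Mdm2, the ubiquitin ligase that targets p53 for degradation, was at 82.3 ± 4.21 CPM in RGC, 86.7 ± 6.18 in IPC and 53.8 ± 2.21 in PN. Mdm4, which binds and inhibits p53, was at 218 ± 10.6 CPM in RGC and 137 ± 7.62 in PN. For all 3 genes the RGC and PN embryos did not overlap. How many of all genes separate RGC from PN in this way is not given here. Such a separation, here and below, is therefore only a description.

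Within Int, the late Int precursors of Cluster 10 were apart from the other Int clusters for several genes. Cluster 10 had Trp53 at 34.35 ± 9.79 CPM, behind 5 RGC and IPC clusters, and had Gadd45g at 28.4 ± 7.52, Bcl2l11 at 26.7 ± 10.2 and Cflar at 26.2 ± 6.88. Top2a, a marker of cycling cells, was at 558 ± 93.25 CPM there, after 789 ± 109 in Cluster 17, 731 ± 130.2 in Cluster 2 and 583 ± 77.25 in Cluster 3.

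Several target genes of p53 were highest outside the RGC. Cdkn1a, which encodes the cell cycle inhibitor p21, was highest in Cluster 14, at 8.80 ± 3.06 CPM (SD, n = 11; lowest 3.30, median 8.65, highest 15) on 128 UMIs. The next was Cluster 21, at 1.92 ± 2.78 CPM (n = 10) on 13 UMIs, and Cluster 14 was higher in all 10 embryos that had both. Cluster 14 thus held 128 of the 315 Cdkn1a UMIs.

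Sesn2, a stress-induced inhibitor of mTORC1 signalling, was also highest in Cluster 14 (7.71 ± 3.52 CPM, 105 UMIs; lowest 1.10, median 7.90, highest 13.9), ahead of Cluster 6 (2.84 ± 1.78) in 10 of 11 embryos. Ccng1, which encodes cyclin G1, was at 15.8 ± 5.94 CPM in Cluster 14 (204 UMIs) and at 7.54 ± 9.87 in the next, Cluster 23, on 14 UMIs. Cluster 14 also led for Diablo, whose protein frees caspases from their inhibitors (15.05 ± 7.82 CPM), for Apaf1 (93.9 ± 12.5 CPM) and for the anti-apoptotic Bcl2l1 (122 ± 26.1 CPM). Trp53 itself had 17.8 ± 4.64 CPM in Cluster 14, less than in 11 other clusters. The p53 family gene Trp73, from the second list and also one of the markers of Cajal-Retzius cells, was at 542 ± 164 CPM in Cluster 14 and 35.35 ± 24.1 in the next cluster.

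Gadd45g, a growth arrest gene, was highest in the non-mitotic IPC of Cluster 6 (87.7 ± 17.9 CPM; lowest 64.0, median 88.6, highest 119) and next in the mitotic IPC of Cluster 17 (46.5 ± 14.3). Gadd45a had the same order, with 4.53 ± 1.79 CPM in Cluster 6 and 2.06 ± 1.55 in Cluster 17. Cluster 6 was higher in 10 of 11 embryos for each gene. Gadd45b had only 99 UMIs in all nuclei. Perp, which encodes a membrane protein induced by p53, was at 6.03 ± 4.60 CPM in Cluster 21 on 27 UMIs and at 1.06 ± 1.44 in the next, Cluster 14. With so few UMIs Perp fell outside the rule for naming genes by cluster, and it is named after its values were seen.

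**Figure D2:**
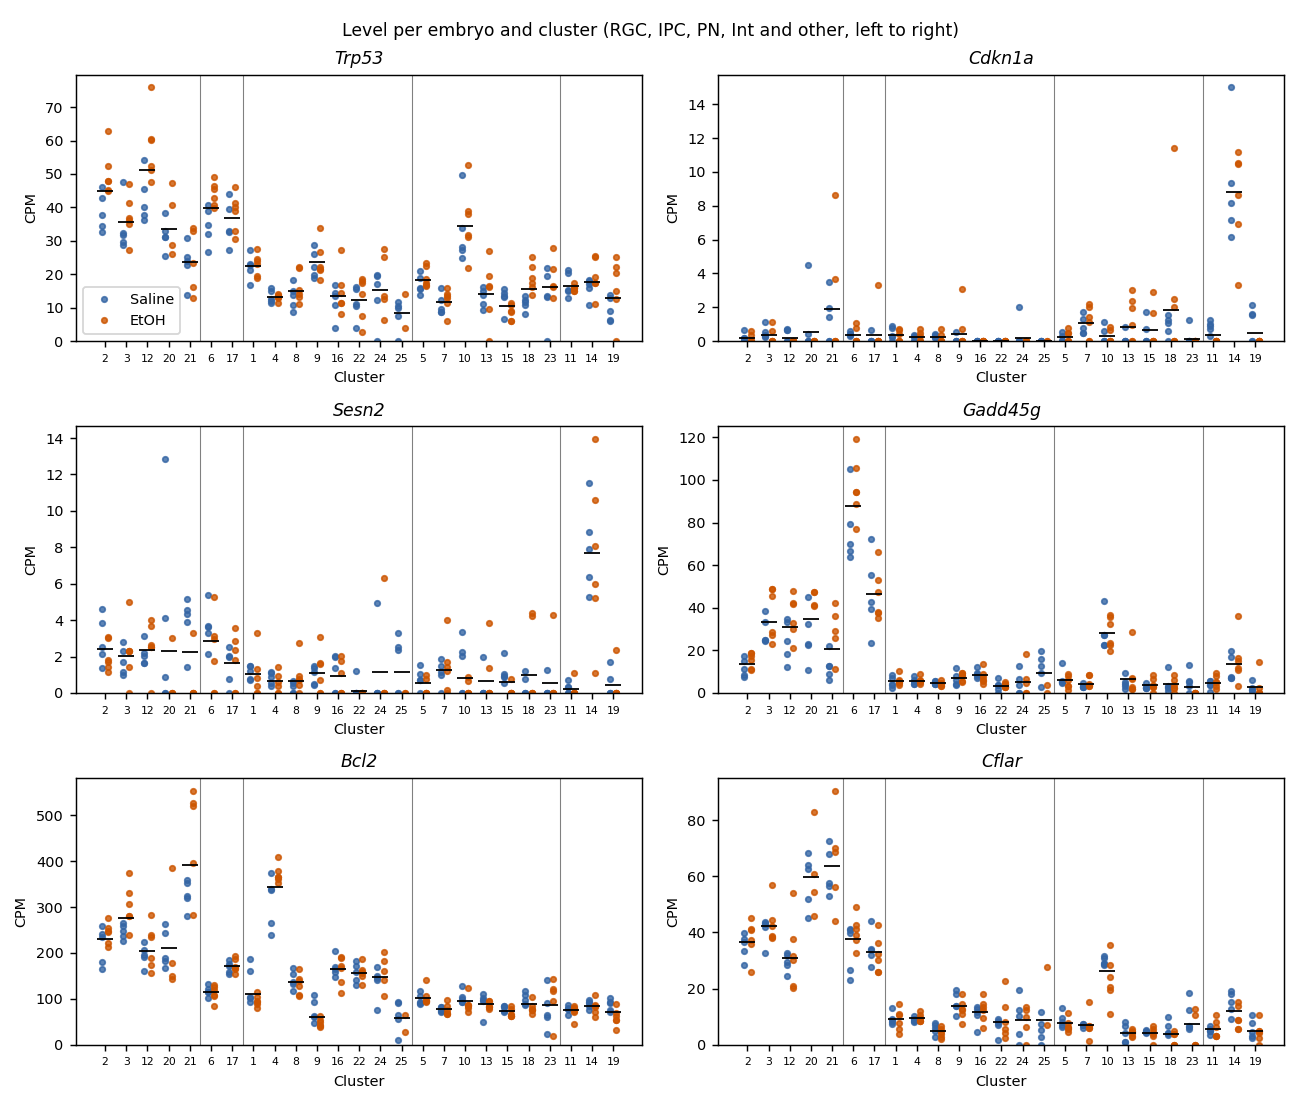
Level in CPM of 6 genes in each embryo (blue saline, orange EtOH) by cluster, with the mean over embryos as a black bar; grey lines separate RGC, IPC, PN, Int and other clusters. Cdkn1a and Sesn2 stand high in Cluster 14, Gadd45g in Clusters 6 and 17, Bcl2 in Clusters 21 and 4, and Cflar in Clusters 20 and 21.

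The promoters are shown because several of these genes are targets of p53, whose site in DNA consists of half-sites. Windows from 250 bases before to 50 bases after the RefSeq start were searched on both strands for the p53 consensus half-site, which is 10 bases long and reads the same on either strand. The search was chosen after the levels had been seen. A looser motif, a pair of p53 core tetranucleotides 6 to 12 bases apart, was tried as well and not used, as 35.8% of all windows held it. A half-site was found in 8 of the 54 windows of 42 genes, those of Cdkn1a, Ccng1, Mdm2, Bax, Gadd45a, Trp53, Sesn1 and Birc2, and in 8.36% of all 32851 windows. The windows of Cdkn1a and Ccng1, which were highest in Cluster 14, and of Mdm2 and Bax, which were highest in Cluster 12, are printed with half-sites in capitals. They lie on GRCm38.p6 at chr17:29090729-29091028 (plus strand), chr11:40755237-40755536 (minus strand), chr10:117710709-117711008 (minus strand) and chr7:45466849-45467148 (minus strand).
Cdkn1a: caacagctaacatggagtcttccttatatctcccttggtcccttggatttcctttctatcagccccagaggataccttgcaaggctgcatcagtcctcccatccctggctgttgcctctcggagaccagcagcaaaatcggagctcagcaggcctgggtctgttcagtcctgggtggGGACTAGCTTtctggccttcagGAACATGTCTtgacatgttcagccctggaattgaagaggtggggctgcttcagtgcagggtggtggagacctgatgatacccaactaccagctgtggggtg
Ccng1: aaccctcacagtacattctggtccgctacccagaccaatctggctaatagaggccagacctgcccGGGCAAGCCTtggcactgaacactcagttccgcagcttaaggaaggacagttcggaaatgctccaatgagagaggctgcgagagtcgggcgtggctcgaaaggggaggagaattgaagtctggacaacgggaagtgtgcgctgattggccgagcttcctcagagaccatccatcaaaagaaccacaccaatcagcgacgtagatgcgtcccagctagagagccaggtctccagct
Mdm2: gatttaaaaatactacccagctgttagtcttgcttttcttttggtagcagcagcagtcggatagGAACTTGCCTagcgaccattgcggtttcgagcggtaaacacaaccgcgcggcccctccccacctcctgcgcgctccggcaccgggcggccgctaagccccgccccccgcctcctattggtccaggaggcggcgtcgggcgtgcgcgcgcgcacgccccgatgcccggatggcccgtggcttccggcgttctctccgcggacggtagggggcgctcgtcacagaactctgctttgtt
Bax: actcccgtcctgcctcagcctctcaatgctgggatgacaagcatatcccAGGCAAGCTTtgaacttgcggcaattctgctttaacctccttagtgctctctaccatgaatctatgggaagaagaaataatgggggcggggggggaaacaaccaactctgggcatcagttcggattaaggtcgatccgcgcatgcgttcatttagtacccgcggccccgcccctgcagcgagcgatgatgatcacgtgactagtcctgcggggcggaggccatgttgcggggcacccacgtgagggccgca
The printed Cdkn1a window held 2 half-sites, which began 73 and 51 bases before its start, while the window of a second RefSeq start of Cdkn1a held none, and 0.359% of all windows held 2 or more. The half-site began 185 bases before the start in Ccng1, 186 in Mdm2 and 201 in Bax. Genes with a half-site were found at the top of different clusters, and a match of letters does not show that p53 binds there.

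In the BCL2 family, the anti-apoptotic Bcl2 was highest in Cluster 21 (391.5 ± 104 CPM, SD, n = 10; lowest 281, median 356, highest 553) and in Cluster 4, the rostral subcortical PN (344 ± 49.6, n = 11), an order that held in 6 of 10 embryos. By type it was at 248 ± 29.9 CPM in RGC, 188 ± 10.9 in PN and 89.0 ± 6.68 in Int. Bcl2l11, which encodes the BH3-only protein BIM, was at 37.55 ± 3.45 CPM in RGC, 24.4 ± 3.47 in IPC and 6.95 ± 1.14 in PN. Its lowest RGC embryo (33.15 CPM) was above its highest PN embryo (9.15). Bcl2l1, which encodes BCL-XL, varied less, from 76.0 ± 6.02 CPM in RGC to 104 ± 9.03 in IPC. Mcl1, which encodes a short-lived anti-apoptotic protein, and Bax were highest in Cluster 12, at 35.4 ± 10.2 and 17.3 ± 5.18 CPM.

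Hrk, a BH3-only gene, was highest in Cluster 24, PN of few nuclei, with a mean of 28.5 ± 50.15 CPM (n = 10) and a median of 3.28 CPM. Of its 50 UMIs there, 23 came from the 14 nuclei of S1-1, 13 from the 63 nuclei of S2-1 and 7 from the 10 nuclei of S2-4, and 4 of the 10 embryos had none. The level of Hrk in Cluster 24 therefore rests on few libraries.

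In the death receptor arm, Casp8, the initiator caspase, was at 9.49 ± 1.35 CPM in RGC, 4.58 ± 1.87 in IPC and 0.875 ± 0.348 in PN (n = 11). The 5 RGC clusters had overlapping levels, from 8.96 ± 3.19 CPM in Cluster 12 to 10.03 ± 7.23 in Cluster 20. Cflar, whose product cFLIP restrains caspase 8, was at 40.6 ± 3.40 CPM in RGC, 36.3 ± 5.045 in IPC and 8.88 ± 1.45 in PN, and was highest in Clusters 21 (63.6 ± 12.99) and 20 (59.6 ± 11.8). Thus the caspase and its inhibitor were both high in RGC and low in PN. Fas had 49 UMIs in all 50550 nuclei and Pmaip1, which encodes the BH3-only protein NOXA, had 38. Of the Fas UMIs, 17 were in Cluster 3 and 12 in Cluster 14, and of the Pmaip1 UMIs 10 were in Cluster 7. Fas was at 0.120, 0.05665, 0.151, 0.0909 and 0.111 CPM in saline embryos S1-1, S1-2, S2-1, S2-2 and S2-4 and at 0.0572 to 0.213 in EtOH embryos.

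Casp9 and Apaf1, genes of the apoptosome, were spread more evenly by type, while the inhibitor gene Xiap was not. Casp9 ranged from 7.82 ± 1.24 CPM in Int to 10.3 ± 1.53 in RGC, and Apaf1 from 52.5 ± 3.46 in PN to 67.3 ± 7.18 in the other cells. Xiap, which blocks caspases directly, ranged from 77.75 ± 6.29 CPM in PN to 172 ± 11.5 in RGC and reached 205 ± 11.1 in Cluster 3.

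Of the remaining caspases, Casp2, which encodes an initiator caspase, ranged from 28.0 ± 2.41 CPM in the other cells to 51.65 ± 3.92 in IPC, and the executioner gene Casp6 from 5.12 ± 2.26 to 7.74 ± 1.755. For both genes the means of RGC and IPC were the 2 highest, and the same held for Cycs, Aifm1 and Birc6. Cycs, which encodes cytochrome c, was at 5.55 ± 1.19 CPM in RGC and 2.84 ± 0.668 in PN, Aifm1, which encodes the apoptosis inducing factor, at 69.0 ± 4.455 and 47.6 ± 1.83, and Birc6, which encodes a very large inhibitor of apoptosis, at 402 ± 15.95 and 312 ± 11.9. Endog, which encodes endonuclease G, had 301 UMIs and stayed at 0.411 to 0.791 CPM in every type.

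Among the other BCL2 members, the pore-forming Bak1 ranged from 3.27 ± 0.8004 CPM in PN to 4.75 ± 1.10 in the other cells, a spread close to that between embryos. Bok, a relative of Bax and Bak1, was highest in PN (9.92 ± 1.70 CPM), with 13.6 ± 3.01 in Cluster 1 and 13.1 ± 5.71 in Cluster 16. Of the BH3-only genes, Bad stayed at 6.08 to 7.07 CPM by type. Bbc3, which encodes the p53-induced PUMA, had 516 UMIs and was lowest in IPC (0.384 ± 0.386 CPM) and at 1.119 to 1.485 in the other types. Bnip3l, a mitophagy receptor like Bnip3, ranged from 22.7 ± 5.28 CPM in the other cells to 37.8 ± 5.22 in IPC. Bnip3 was at 7.29 ± 1.45 CPM in RGC and 6.51 ± 0.588 in PN, the inhibitor of apoptosis gene Birc2 at 60.8 ± 3.54 and 45.5 ± 2.23, and the sestrin gene Sesn1 at 147 ± 11.1 and 163.5 ± 9.69.

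The factor that cuts DNA in dying cells had lower mean levels in RGC than in neurons. Dffb, its nuclease, was at 5.31 ± 1.23 CPM in RGC and 7.60 ± 1.31 in PN, and Dffa, which holds the nuclease inactive, at 12.6 ± 2.43 in RGC and 16.9 ± 2.44 in Int. In the death receptor arm, Tnfrsf1a, which encodes a receptor for tumour necrosis factor, was at 1.835 ± 0.409 CPM in RGC and 0.663 ± 0.452 in Int on 471 UMIs, and the adaptor gene Fadd was at 0.844 ± 0.336 CPM in RGC and 0.510 ± 0.288 in PN on 282 UMIs.

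For the effect of EtOH, counts were summed per embryo over all nuclei, over each cell type and over each cluster, and tested with edgeR. A gene was called when its Benjamini-Hochberg adjusted p was below 0.05 and its log2 fold change (EtOH over saline) was beyond 0.32 in either direction. Over all nuclei 41 of the 44 genes were tested, with Fas, Pmaip1 and Gadd45b too low. Of the 41, Bax and Bid were called as higher after EtOH and Sesn2 as lower. Of all 18138 genes tested 12.1% were called, 8.55% as higher and 3.55% as lower, so 3 of 41 is no more than that background. Without the limit on fold, 10 of the 41 passed, against 21% of all genes. The median log2 fold change was -0.08 for the 41 genes and 0.01 for all genes. CPM is not adjusted for library composition and the log2 fold change is, so the 2 can differ. CPM can be higher in EtOH embryos where the log2 fold change shows no rise, as for Bcl2l1 below.

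Bax was at 7.44, 7.84, 8.64, 8.61 and 13.2 CPM in S1-1, S1-2, S2-1, S2-2 and S2-4, and at 10.6, 12.3 and 14.8 CPM (lowest, median and highest) in the EtOH embryos. The first 4 saline embryos were below every EtOH embryo and S2-4 was among them. Bax lies at chr7:45461697-45466898 (minus strand) of GRCm38. The log2 fold change was 0.37 ± 0.12 (SE; edgeR, adjusted p = 0.04435), 0.61 within batch 1 and 0.23 within batch 2, and 0.51 without S2-4. With a batch term Bax was no longer called (0.37).

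Bid, whose protein links caspase 8 to mitochondria, was at 3.42, 4.098, 4.20, 4.93 and 5.58 CPM in the saline embryos, in the same order, and at 5.49, 5.685 and 6.59 in the EtOH embryos. Again only S2-4 reached the EtOH range. Bid lies at chr6:120891930-120916853 (minus strand). The log2 fold change was 0.34 ± 0.10 (edgeR, adjusted p = 0.0355), 0.43 in batch 1 and 0.27 in batch 2, and 0.41 without S2-4. Gm44260 overlaps Bid on the same strand and Bcl2l13 on the other, and Gm45808 overlaps Bax on the same strand, so the split of reads between them is uncertain.

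Sesn2 was at 1.28, 1.47, 1.76, 2.43 and 1.58 CPM in the saline embryos and at 1.02, 1.26 and 1.315 in the EtOH embryos, on 15 to 48 UMIs in an EtOH embryo. The groups overlapped only at S1-1, and S2-2 was the highest. Of the types, Sesn2 was tested in RGC and in the other cells. Its medians were 2.19 CPM in saline and 2.01 in EtOH embryos in RGC, and 2.51 and 2.72 in the other cells. Sesn2 lies at chr4:132492032-132510501 (minus strand). The log2 fold change was -0.56 ± 0.16 (edgeR, adjusted p = 0.0312), -0.34 in batch 1 and -0.68 in batch 2, and -0.60 without S2-4. Unlike Bax and Bid, Sesn2 was not called by limma with the dam as a random block. With 1 embryo left out at a time, Sesn2 and Bid were still called in 3 of 11 fits each and Bax in 1 of 11. Gm12981 overlaps Sesn2 on the same strand, so here too reads may be shared.

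Another 7 genes had an adjusted p below 0.05 at a smaller fold. Mcl1 was at 17.9, 16.9, 19.2, 21.4 and 25.03 CPM in the saline embryos and at 23.5, 24.8 and 26.9 in the EtOH embryos (0.25 ± 0.07, edgeR adjusted p = 0.0263), with S2-4 alone in the EtOH range. Lower after EtOH were Bcl2l11 (-0.27 ± 0.07), the p53 inhibitors Mdm4 (-0.18 ± 0.05) and Mdm2 (-0.14 ± 0.05), the caspase inhibitor Xiap (-0.22 ± 0.07), the sestrin Sesn3 (-0.25 ± 0.06) and Bnip3 (-0.22 ± 0.07), which encodes a mitophagy receptor. Their edgeR adjusted p lay between 0.0205 for Sesn3 and 0.04745 for Mdm2, and only for Bnip3 did the groups not overlap. How many of all genes had saline and EtOH embryos without overlap is not given here. A lack of overlap, here and below, is therefore only a description. The genes that were lower over all nuclei thus included both pro-apoptotic and anti-apoptotic members. In median CPM, which is not adjusted for library composition, not every type was lower after EtOH. These medians do not settle in which types the fitted value fell. Bcl2l11 had medians of 37.4 CPM in saline and 36.5 in EtOH embryos in RGC, and 22.3 and 25.5 in IPC. In PN its medians were 7.56 and 6.2. Sesn3 had 66.4 and 67.2 in RGC, 79.09 and 79.15 in IPC, and 46.3 and 42.05 in PN. Mdm2 had 80.2 and 83.6, 89.5 and 86.04, and 54.0 and 52.4 in these types. For Mdm4, Xiap and Bnip3 the EtOH median was lower in every type.

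Trp53 and its best known target did not pass. Trp53 was at 19.8, 20, 21.1, 23.35 and 27.7 CPM in the saline embryos and at 22.6, 24.6 and 28.1 in the EtOH embryos (0.08 ± 0.07, edgeR adjusted p = 0.449). Cdkn1a was at 0.674, 0.529, 0.705, 1.59 and 0.352 CPM and 0.355, 0.654 and 1.09 (-0.23 ± 0.36, edgeR adjusted p = 0.669), with an SE larger than the effect. Mdm2 was at 64.0, 65.0, 70.8, 68.1 and 65.7 CPM and 60.1, 63.6 and 66.55. The groups overlapped for each of these genes. By type, Trp53 in RGC was at 32.2, 33.9 and 46.3 CPM (lowest, median and highest) in saline and 40.9, 44.7 and 53.98 in EtOH embryos (0.26 ± 0.09, edgeR adjusted p = 0.0893). In IPC it was at 31.04, 34 and 41.8 CPM in saline and 38.02, 41.35 and 48.03 in EtOH embryos (0.21 ± 0.10, edgeR adjusted p = 0.223). Neither passed, and the groups overlapped in both types. Trp53 was called in RGC with batch 1 alone (0.37) and without S2-4 (0.33), and without S2-4 also in Clusters 2 (0.38) and 12 (0.48). Batch 1 held 1 dam per treatment, so its fit cannot tell dam from treatment. The share of all genes called in these fits is not given here.

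The other reference genes had small effects. Bcl2 was at 155, 150.2, 135, 157 and 164 CPM in the saline embryos and 152, 166 and 175.5 in the EtOH embryos (0.03 ± 0.06). Bcl2l1 was at 78.0, 80.4, 85.4, 85.9 and 85.0 CPM and 82.85, 87.2 and 91.2 (-0.00 ± 0.04). Both overlapped between the groups. Bcl2l11 was at 15.9, 16.9, 17.7, 22.3 and 18.6 CPM and 14.4, 15.9 and 17.6, with S2-2 highest. Casp9 was at 7.93, 7.12, 8.36, 8.59 and 8.85 CPM and 9.15, 9.62 and 11.2, with no overlap, and its log2 fold change of 0.19 ± 0.07 did not pass (edgeR, adjusted p = 0.0748). Apaf1 was at 60.1, 58.5, 65.6, 65.75 and 60.7 CPM and 58.85, 59.6 and 62.4 (-0.12 ± 0.04, edgeR adjusted p = 0.0604), and the groups overlapped. Casp8 was at 2.76, 3.12, 3.22, 4.91 and 3.32 CPM and 2.81, 3.05 and 3.81 (-0.18 ± 0.14), again with overlap.

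By role, the log2 fold changes ran from -0.18 to 0.19 in the 4 caspases, -0.12 to 0.19 in the 5 genes of the apoptosome and mitochondrial release, -0.22 to -0.08 in the 3 inhibitors of apoptosis, -0.00 to 0.25 in the 3 anti-apoptotic BCL2 members and 0.14 to 0.37 in the 3 pore-forming members. They ran from -0.27 to 0.34 in the 5 BH3-only genes tested, -0.22 to 0.01 in the 2 BNIP3 genes, -0.18 to 0.08 in Trp53 and its 2 regulators, -0.56 to 0.28 in the 8 targets of p53 and growth arrest genes, -0.23 to 0.16 in the 3 of the death receptor arm and 0.11 to 0.18 in the 2 of the DNA fragmentation factor.

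**Figure D3:**
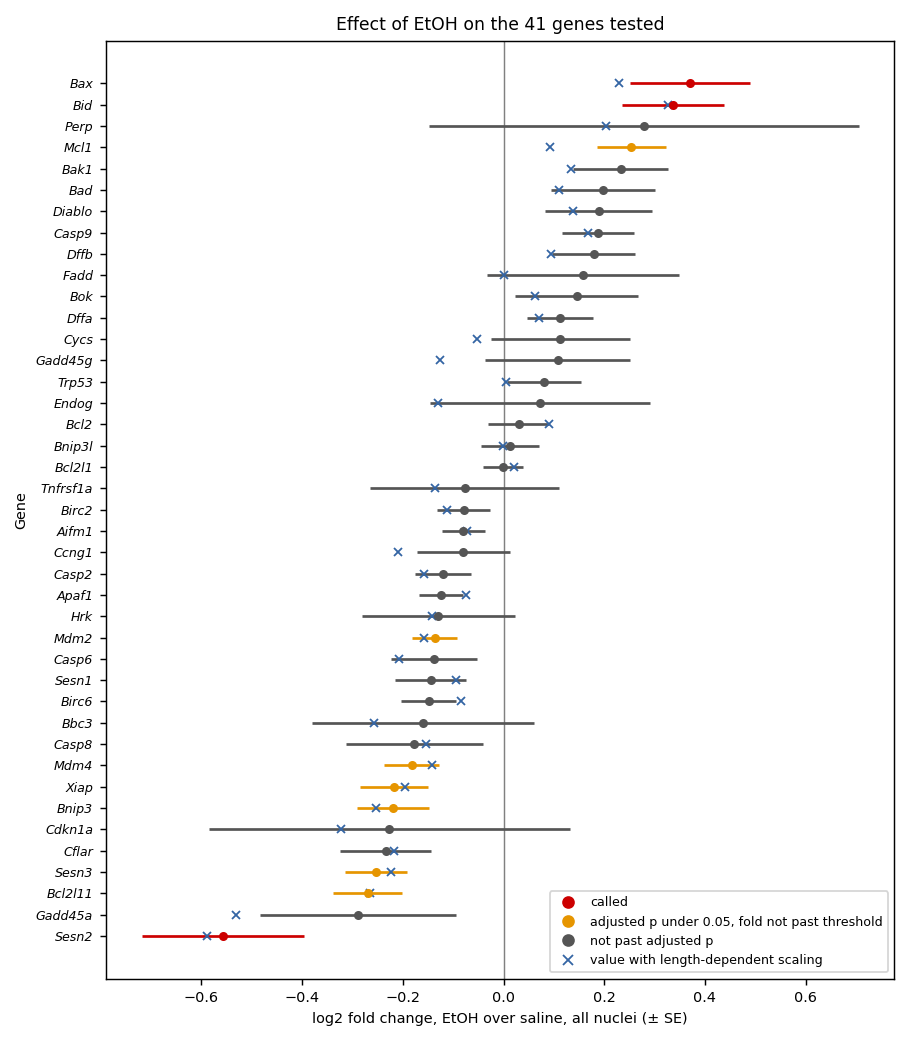
Log2 fold change (EtOH over saline, all nuclei) of the 41 genes tested, with SE as bars, and the value under length-dependent scaling as a cross. Bax, Bid and Sesn2 are the genes called, and the crosses of the short genes Mcl1, Bax, Gadd45g and Gadd45a lie left of their points.

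Gene length moved with the effect. Over all nuclei the median log2 fold change of all genes was 0.21 for genes up to 5 kb, 0.12 for 5 to 10 kb, 0.03 for 10 to 30 kb, -0.04 for 30 to 100 kb and -0.09 above 100 kb. Across genes, which share the libraries, Spearman's rho was -0.25 for 17898 genes and -0.40 for the 41. Mcl1 spans 4.39 kb and Bax 5.20 kb, while Bcl2l11 spans 36.5 kb and Sesn3 58.0 kb. With a length-dependent scaling, added after this was seen, Bax was at 0.23 (edgeR, adjusted p = 0.1105) and Mcl1 at 0.09 (edgeR, adjusted p = 0.1745). Bid (0.33, edgeR adjusted p = 0.0346) and Sesn2 (-0.59, edgeR adjusted p = 0.0252) were still called. Of all genes, 1550 were called higher and 643 lower with the usual scaling, and 1257 and 847 with this one. Total UMIs did not overlap between EtOH and saline libraries, so their part and that of the treatment cannot be told apart. UMIs per nucleus overlapped at S2-4 alone, and their part was not tested.

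**Figure D4:**
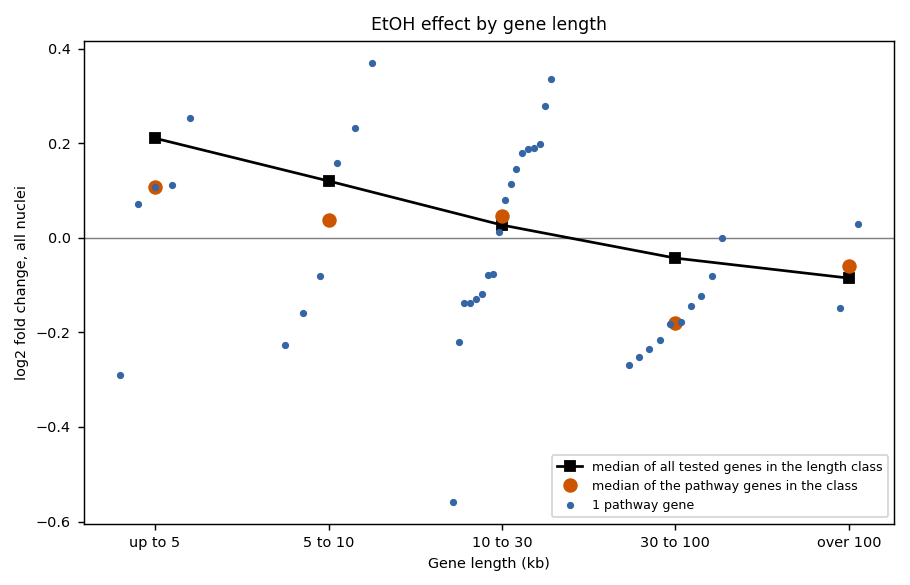
Median log2 fold change of all genes tested over all nuclei by gene length class in kb (black squares), with the median of the pathway genes (orange circles) and each pathway gene (blue points). The medians of all genes go from 0.21 in the shortest class to -0.09 in the longest.

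By cell type, 6 pairs of a gene and a type were called. Mcl1 was higher after EtOH in RGC, PN and Int and Bax in Int, while Cflar was lower in Int and Sesn3 in the other cells. With a batch term only Mcl1 in RGC and in Int remained called, and with length-dependent scaling none of the 6 did, while Casp6 in PN was called as lower (-0.45). In RGC 1 of 35 genes was called, against 3.79% of all genes, in IPC 0 of 34 against 1.52%, in PN 1 of 35 against 6.53% and in Int 3 of 35 against 4.83%. In the other cells 1 of 34 was called as lower and none as higher, against 0.493% and 0.76% of all genes. In IPC, 5 of the 34 (14.7%) had an unadjusted p below 0.05 with edgeR, against 23.7% of all genes, and neither DESeq2 nor limma with the dam as a random block called any there.

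Mcl1 in RGC was at 21.97, 22.7, 23.5, 25.15 and 32.7 CPM in S1-1, S1-2, S2-1, S2-2 and S2-4 and at 31.5, 34.4 and 36.4 (lowest, median and highest) in the EtOH embryos (0.37 ± 0.09, edgeR adjusted p = 0.0402). In PN it was at 14.8, 13.9, 15.2, 18 and 20.6 CPM and 19.4, 21.2 and 23.3 (0.33 ± 0.09, edgeR adjusted p = 0.0356). In Int it was at 17.4, 15.7, 18.2, 19.35 and 22.95 CPM and 22.5, 23.9 and 27.9 (0.33 ± 0.08, edgeR adjusted p = 0.0364). In all 3 types S2-4 alone lay in the EtOH range. With length-dependent scaling the log2 fold changes were 0.17, 0.16 and 0.14, with edgeR adjusted p of 0.122, 0.115 and 0.232.

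Bax in Int was at 7.03, 7.80, 7.34, 7.38 and 12.4 CPM in the saline embryos and at 11.3, 11.8 and 15.8 in the EtOH embryos (0.51 ± 0.14, edgeR adjusted p = 0.0463), and 0.34 with length-dependent scaling (edgeR adjusted p = 0.0954). S2-4 alone overlapped. Cflar in Int was at 10.4, 9.695, 11.02, 8.27 and 12.4 CPM and 6.95, 7.92 and 9.44 (-0.44 ± 0.12, edgeR adjusted p = 0.0467, and -0.42 with adjusted p = 0.05002 after length-dependent scaling), with S2-2 in the EtOH range. Sesn3 in the other cells was at 41.3, 38.2, 51.2, 61.5 and 39.8 CPM and 30.8, 34.3 and 37.3 (-0.50 ± 0.12, edgeR adjusted p = 0.0492, and -0.47 with adjusted p = 0.0638 after length-dependent scaling), and the groups did not overlap.

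**Figure D5:**
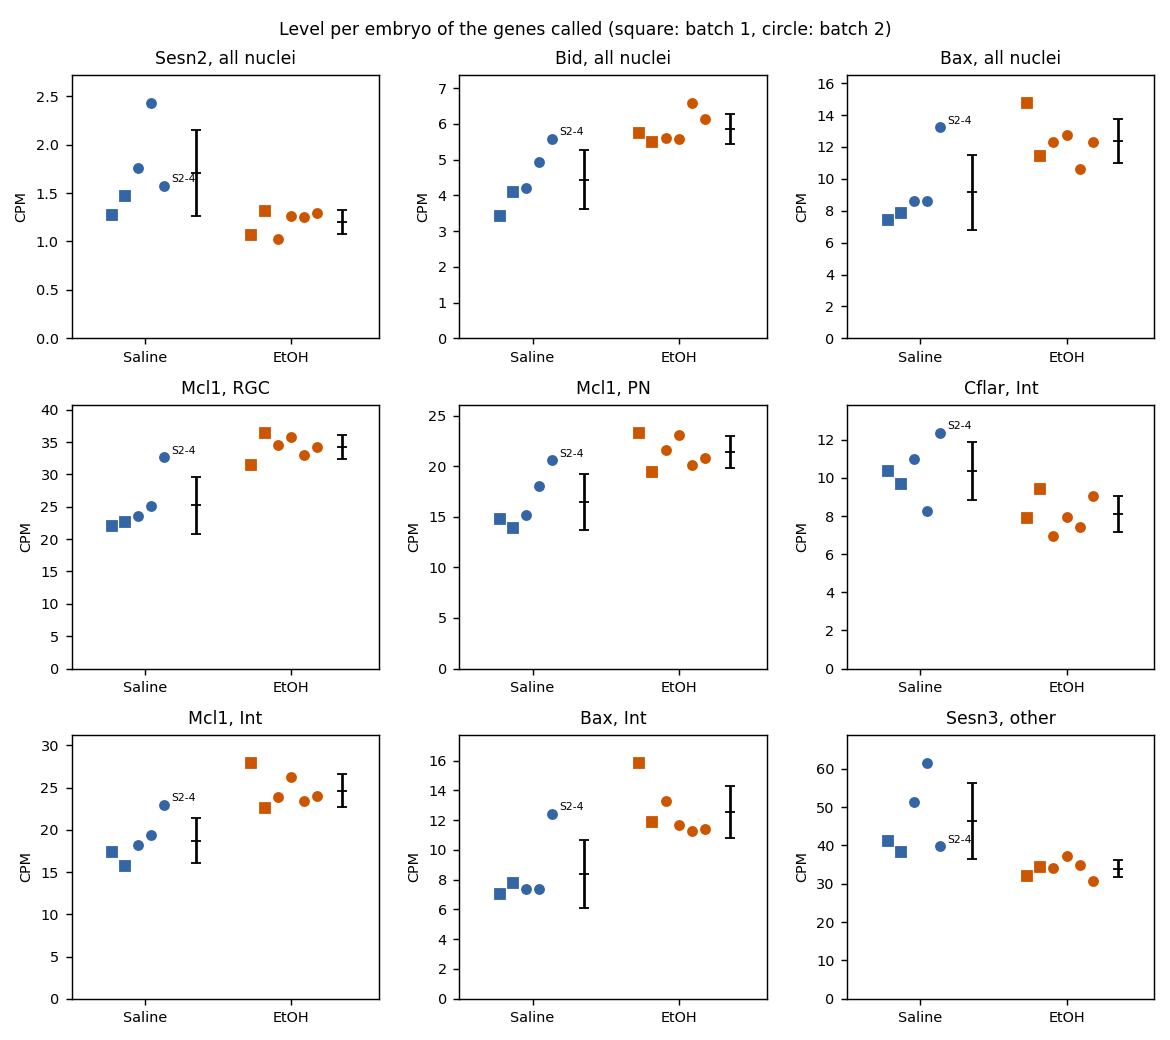
Level in CPM per embryo (squares batch 1, circles batch 2) of the 9 called pairs of a gene and a set of nuclei, with mean and SD as bars. S2-4, marked by name, lies among the EtOH embryos for Bax, Bid and Mcl1 and with the saline embryos for Sesn2, Cflar and Sesn3.

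Differences in log2 fold change between the type in which a gene was called and each other type in which it was not were computed in 18 comparisons and tested by 2-sided exact permutation over 462 splits of the embryos. For Cflar, Int minus the other type was -0.49 against IPC, -0.38 against RGC, -0.30 against PN and 0.01 against the other cells. For Mcl1, Int minus the other cells was 0.26. The Cflar difference from IPC and this Mcl1 difference had an adjusted p of 0.0195 by exact permutation, and the other 16 had 0.05195 to 0.987. Because the pairs had been chosen for their effect in 1 type, which favours a difference, these p-values are no independent evidence that types differ.

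By cluster, none of the 528 tests of these genes passed with edgeR, where 0.783% of the tests of all genes did. An unadjusted p below 0.05 was found in 59 (11.2%), against 17.4% for all genes. DESeq2 called Bax in Cluster 3 (0.69), and limma with the dam as a random block called Bax in Cluster 3, Bid and Bcl2l11 in Cluster 7 and Mcl1 in Cluster 15. The share of all genes that DESeq2 and limma called by cluster is not given here, so these calls have no background beside them. Where genes had their peaks, Trp53 in Cluster 12 was at 42.8 ± 7.27 CPM in saline and 58.0 ± 10.2 in EtOH embryos (0.39 ± 0.15, edgeR adjusted p = 0.160). Cdkn1a in Cluster 14 was at 9.16 ± 3.47 and 8.501 ± 2.98 CPM, and Bcl2 in Cluster 21 at 327.5 ± 31.4 and 455.5 ± 114 (0.48 ± 0.17, edgeR adjusted p = 0.228).

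The number of calls by type changed whichever single embryo was left out. Without S2-4, 3 genes were called over all nuclei, 16 pairs by type and 20 by cluster, among them Mcl1 in 6 clusters and Bax in 3. Without any other single embryo the counts were 0 or 1 over all nuclei, 0 to 2 by type and 0 by cluster. Batch 1 alone gave 4 calls over all nuclei and batch 2 alone 0, and no pair passed when counts were summed per dam. Each batch held 1 dam per treatment. For the fits of this paragraph the share of all genes called is not given here. Their counts therefore have no background beside them and are no result about these genes. Markers of other cells were summed too. The sum of 6 microglial markers was 14.97 to 32.7 CPM in saline and 28.0 to 37.2 CPM in EtOH embryos. That of 5 erythroid markers was 15.8 to 113 CPM in saline and 38.7 to 65.3 CPM in EtOH embryos. That of 4 cycling markers was 361 to 556 CPM in saline and 303 to 421 CPM in EtOH embryos. In saline and EtOH embryos the medians were 15.7 and 35.6 CPM (microglial), 21.9 and 58.1 (erythroid) and 449 and 340 (cycling). The ranges overlapped, and no marker was at 0. Over all nuclei, 2 microglial and 1 erythroid marker were called as higher and 3 cycling markers and 2 of 8 RGC markers as lower. No marker of the other cell types examined was called, while 12.1% of all genes tested were. The part of the called markers in the results was not tested.

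Of the 97 other pathway genes, 81 were tested over all nuclei and 5 were called, again against 12.1% of all genes. Trp53inp2, a regulator of autophagy, rose from 15.5 ± 3.11 CPM in saline to 21.7 ± 1.32 CPM in EtOH embryos (0.42 ± 0.09, edgeR adjusted p = 0.0154). Siah1a, a ubiquitin ligase, fell from 79.9 ± 5.515 CPM in saline to 65.7 ± 2.93 CPM in EtOH embryos (-0.36 ± 0.07, edgeR adjusted p = 0.01475). Birc5 (-0.37 ± 0.08) and Chek1 (-0.38 ± 0.12), which are genes of cycling cells, and the DNA polymerase gene Polk (-0.33 ± 0.08) also fell.

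By type, 7 of 327 tests of these genes were called, in RGC, PN and Int, where 3.79%, 6.53% and 4.83% of all genes were. Among them, in RGC Siah1a fell (-0.36 ± 0.08) and the survival kinase gene Akt1 rose (0.41 ± 0.11). In PN the DNA repair gene Ddb2 (0.34 ± 0.07) and Trp53inp2 (0.44 ± 0.10) rose. In Int Trp53inp1 (-0.34 ± 0.08) and Siah1a (-0.38 ± 0.08) fell. By cluster, 6 of 1056 tests were called, against 0.783% of the tests of all genes. Among them Trp53inp2 in Cluster 8 (0.66 ± 0.16) rose, and Polk in Cluster 1 (-0.90 ± 0.23) and Siah1a (-0.39 ± 0.10), Mapk8 (-0.36 ± 0.08) and Cop1 (-0.33 ± 0.08) in Cluster 3 fell. With length-dependent scaling Akt1 in RGC (edgeR adjusted p = 0.0624), Trp53inp2 in Cluster 8 (edgeR adjusted p = 0.0597) and Cop1 in Cluster 3 (edgeR adjusted p = 0.0638) were no longer called.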

How the data were processed

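Nuclei of 11 embryos were profiled with the 10x Genomics 3′ kit. The authors deposited raw UMI counts per gene and nucleus, in 275 tables of 1 embryo and cluster each, after alignment with Cell Ranger to mm10 and filtering and clustering with Seurat, and whether counting used strand is not given in the sources used here. Doublets were not called here, and their treatment by the authors is not given there. A further saline embryo, S2-3, is not analysed here. Clusters and cell types are the authors'. The genes and lists were chosen with earlier results of these data known.

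Counts were summed per embryo and per all nuclei, cell type or cluster, using sums of at least 10 nuclei and at least 2 embryos per treatment. They were tested 2-sided with edgeR 4.0.16 (quasi-likelihood, robust, TMM, filterByExpr, no covariate) in R 4.3.3, with Benjamini-Hochberg adjustment within each fit; SE is the log2 fold change over the root of F. DESeq2 1.42.0, limma 3.58.1 with the dam as a random block, a batch term, a replicate block and other settings were alternatives. The fits were checked on simulated data. Levels are CPM, with SD over embryos. Genes named by rule are those called in any fit, 12 core genes, those with under 50 UMIs, and the 5 with the smallest p. Also named by rule are the 12 genes with the largest ratio of top to median cluster (at least 50 UMIs in the top cluster). Most other genes of the list are named outside this rule, with their levels by type or cluster. Gene positions and lengths are from GENCODE M21 (GRCm38), promoters from RefSeq (GRCm38.p6), where 42 of 45 genes had a window used here. Python 3.11.15, NumPy 2.4.6, SciPy 1.17.1, pandas 2.3.3 and matplotlib 3.10.9 were used. Embryos sharing a batch and number (5 pairs) had correlations of deviations from -0.172 to 0.161, so numbers were not taken as pairs. Some results of the second list are not reported here.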

Additional observations from a re-analysis of the deposited data

Results flagged for a closer look

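Of 102 groups of embryos tested, 11 had 1 embryo far from the others by Dixon's ratio. For independent groups chance gives about 1 in 20. The groups here share the same embryos, and some were added because their gene was called. The number flagged therefore cannot be set against that rate. Over all nuclei, E1-1 was the highest EtOH embryo for Casp2 (39.8 CPM, others 34.7 to 36.3), Casp9 (11.2 CPM, others 9.15 to 9.93) and Gadd45g (24.3 CPM, others 13.9 to 16.4), and it had the fewest UMIs per nucleus. S2-4 was the highest saline embryo for Bax (13.2 CPM, others 7.44 to 8.64, and 12.4 CPM against 7.03 to 7.80 in Int), Gadd45g (21.1 CPM, others 13.1 to 14.0) and Dffa (15.9 CPM, others 13.4 to 14.1). S2-2 was the highest saline embryo for Casp8 (4.91 CPM, others 2.76 to 3.32) and Cdkn1a (1.59 CPM, others 0.352 to 0.705). S1-2 was the lowest for Fadd (0.491 CPM, others 0.604 to 0.650). In Cluster 24, E1-2 was highest for Hrk (24.7 CPM from 4 UMIs, others 0 to 2.505). The log2 fold change differed by -0.49 for Cflar (Int minus IPC) and by 0.26 for Mcl1 (Int minus other cells). Each had an adjusted p of 0.0195 over 18 comparisons by exact permutation, and because the pairs were chosen for their effect in Int, which favours a difference, this is no independent evidence.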

How the results depend on the processing

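Each of the 9 called pairs of a gene and a set of nuclei kept its direction under all 23 alternatives, and was called in 5 to 11 of them. Dropping the fold threshold, or asking for at least 30 nuclei, could not lose any of these calls. The smallest sum by type held 184 nuclei (other cells, E1-2). For the members over all nuclei the 3 calls became 10 with no fold threshold, and 0 with counts summed per dam or in batch 2 alone. By cell type the 6 calls became 2 with a batch term, 3 with no filter, 1 with length-dependent scaling, 11 in batch 1 alone, and 0 per dam or in batch 2 alone. By cluster the 0 calls became 1 with DESeq2, 2 with no filter, 4 with limma (dam as a random block) and 4 in batch 1 alone. Leaving out each embryo gave 0 to 3 calls over all nuclei, 0 to 16 by type and 0 to 20 by cluster. For most alternatives, here and for the other pathway genes, the share of all genes called is not given. The counts thus have no background beside them.

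For the other pathway genes the 5 calls over all nuclei became 21 with no fold threshold, 8 with length scaling, 9 in batch 1 and 0 per dam or in batch 2. The 7 by type became 18 with no fold threshold, 15 with DESeq2, 17 with no filter, 2 per dam, 13 with limma, 11 with length scaling, 29 in batch 1 and 0 in batch 2. The 6 by cluster became 2 with a batch term, 16 with DESeq2, 32 with no filter, 15 with limma, 22 in batch 1, 0 in batch 2 and 2 when adjusted over all clusters. Leaving out each embryo gave 3 to 9, 0 to 36 and 0 to 53.

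With the replicate block, which pairs embryos that share only a number, the members had 0 calls over all nuclei, by type and by cluster, and the other genes 0, 0 and 1. The cause of these changes was not tested. Length-dependent scaling, added after the data were seen, changed the split of all calls to 124 higher and 159 lower in RGC (330 and 212 before), 49 and 66 in IPC (102 and 74), 465 and 470 in PN (609 and 345), 384 and 247 in Int (523 and 178) and 24 and 37 in the other cells (94 and 61). The cluster with the highest level was the same for 32 to 41 of 44 genes. Depth limits genes with few UMIs.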
